A study of Rattus norvegicus with 16 samples.

Results

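Untreated rat islets in culture were followed on the 5 arrays, of 16 in the series, whose titles call the islets untreated. Pancreatic islets are small endocrine organs, and the islets here were isolated from male Wistar rats of 8 weeks. They were kept in RPMI medium with 8 mM glucose and 10% fetal bovine serum, and received no virus. The protocol sets collection at 48 h after virus was added and gives no separate time for the untreated islets. The other 11 arrays held islets that received an adenovirus, either with β-galactosidase (6 arrays) or with Nkx6.1 (5 arrays), and they enter no value here beyond 1 alternative way of choosing probe sets. The titles call the arrays biological replicates, and whether an array held the islets of 1 animal or of a pool is not given. The labels name whole islets and no sorting by cell type. Fewer cells of a type and less RNA per cell therefore cannot be told apart in any value below.

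Most cells of a rat islet are beta cells, which secrete insulin together with amylin. Alpha cells secrete glucagon, delta cells somatostatin, PP cells pancreatic polypeptide and the rare epsilon cells ghrelin. A beta cell takes up glucose through a transporter and phosphorylates it, and its mitochondria make ATP that closes potassium channels. The membrane then depolarises, voltage-gated calcium channels open and granules fuse with the membrane, while receptors for gut hormones and for noradrenaline tune this response up or down.

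A gene with several probe sets was read from the one brightest on average in these 5 arrays, and values are log2 intensities with their mean ± SD (n = 5 arrays). Genes were ranked by this mean among 14217 genes with a named probe set, where rank 1 is the brightest. Probe sets bind their targets with unequal strength, so a rank is a position on the intensity scale and not an amount of RNA. The brightest 5% of genes lay above 12.93, the brightest 25% above 11.41, the brightest 50% above 9.82 and the dimmest 25% at or below 6.90. No detection call was used, so a gene in the dimmest 25% is described by its position and is not called absent. There is 1 group, so no test between conditions was made.

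The 5 arrays were close to each other. The SD of the difference between 2 arrays lay between 0.216 and 0.266 over the 10 pairs. Their median intensities ran from 265 to 280 on the linear scale. The deposited values had been normalized (RMA), so near medians do not measure agreement. Between 35 and 76 genes differed more than 2-fold between the arrays of a pair. For 915 of 14217 genes (6.44%), 1 array lay apart from the other 4 by Dixon's ratio, which chance would give in about 1 in 20 groups of 5. Replicate 1 was that array for 372 genes (2.62% of all genes) and replicate 3 for 201 (1.41%). Replicates 2, 4 and 5 were that array for 130 (0.914%), 110 (0.774%) and 102 genes (0.717%).

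**Figure D1:**
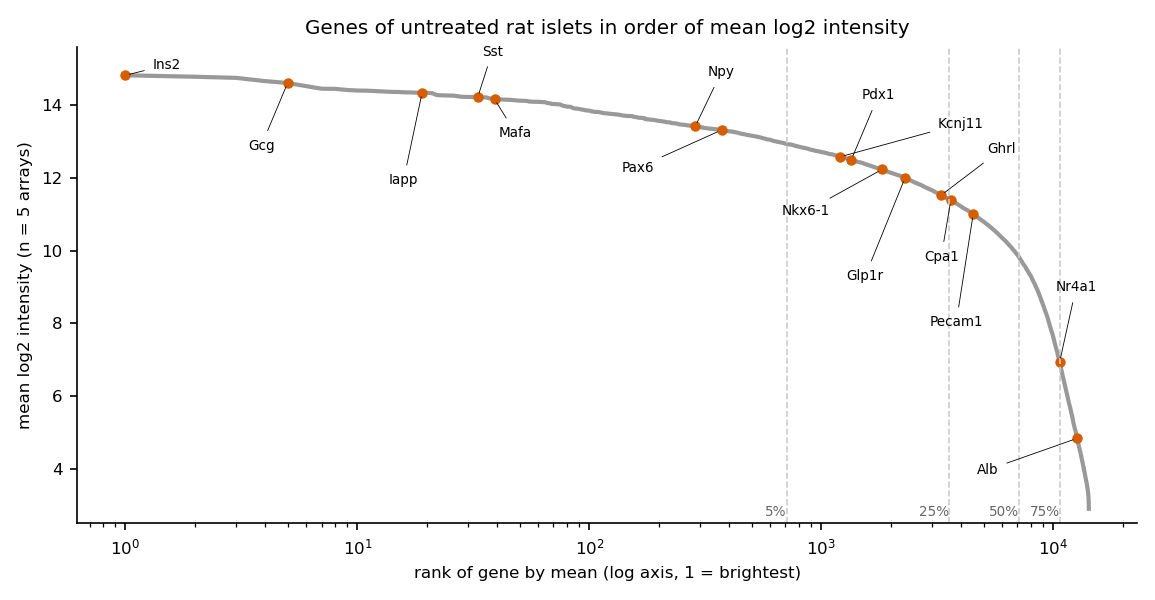
The mean log2 intensity of each gene over the 5 untreated arrays is plotted against its rank on a log axis, with dashed lines at the brightest 5%, 25%, 50% and 75% of genes and orange points for 16 named genes. The hormone genes Ins2, Gcg, Iapp and Sst stand at the flat upper end, with Npy below them at 13.42 and Ghrl at 11.53. The labelled marker genes of beta cells lie in the brightest 25%, and the liver gene Alb at 4.84, far down the steep lower end.

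The labelled tissue was checked first against its 5 defining genes, which were all among the 33 brightest genes. Ins2 and Ins1, the insulin genes of the rat, ranked 1 and 3. Ins2 read 14.72, 14.89, 14.78, 14.91 and 14.81 on replicates 1 to 5, a mean of 14.82 ± 0.08. Ins1 read 14.62, 14.79, 14.72, 14.89 and 14.74, a mean of 14.75 ± 0.10. Both were lowest on replicate 1 and highest on replicate 4, and Ins2 stood above Ins1 on 5 of 5 arrays by 0.07 ± 0.03. The rat has a pair of insulin genes of closely similar sequence, and how far either probe set also takes up the other transcript was not tested.

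Glucagon (Gcg) ranked 5 at 14.47, 14.63, 14.60, 14.73 and 14.62 on the 5 arrays, a mean of 14.61 ± 0.09. Amylin (Iapp) ranked 19 with 14.32, 14.36, 14.30, 14.38 and 14.37, a mean of 14.34 ± 0.03, with an SD below those of Ins1 and Gcg. Somatostatin (Sst) ranked 33 with 14.32, 14.18, 14.06, 14.34 and 14.19, a mean of 14.22 ± 0.11. Replicates 1 and 4 were the highest for Sst and replicate 3 the lowest, and its rank on single arrays ran from 19 to 61, against 1 to 2 for Ins2 and 4 to 5 for Gcg.

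To show what stands before these 5 bright genes in the genome, their promoters are given from RefSeq (build GRCr8), from 250 bases before to 50 bases after the annotated start, in the direction of the gene. Capitals mark matches, on either strand, to TAAT (the core of the A boxes bound by homeodomain factors such as Pdx1 and Nkx6.1), CATCTG (the E box of the insulin genes, bound by dimers with Neurod1), TGACGTCA (the cyclic AMP response element) and TATAAA (the TATA box); adjoining matches run together.
Ins1: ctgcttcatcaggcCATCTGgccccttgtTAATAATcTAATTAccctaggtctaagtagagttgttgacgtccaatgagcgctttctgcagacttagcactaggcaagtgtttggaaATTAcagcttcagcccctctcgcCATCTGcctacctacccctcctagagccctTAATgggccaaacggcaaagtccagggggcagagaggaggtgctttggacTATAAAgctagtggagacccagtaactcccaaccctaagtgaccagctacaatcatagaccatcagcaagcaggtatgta
Ins2: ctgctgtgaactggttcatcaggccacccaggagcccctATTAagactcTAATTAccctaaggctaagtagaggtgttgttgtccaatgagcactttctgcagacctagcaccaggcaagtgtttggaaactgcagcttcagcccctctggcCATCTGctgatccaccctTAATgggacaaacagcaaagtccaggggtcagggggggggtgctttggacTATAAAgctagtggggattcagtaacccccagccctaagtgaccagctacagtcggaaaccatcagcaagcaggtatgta
Iapp: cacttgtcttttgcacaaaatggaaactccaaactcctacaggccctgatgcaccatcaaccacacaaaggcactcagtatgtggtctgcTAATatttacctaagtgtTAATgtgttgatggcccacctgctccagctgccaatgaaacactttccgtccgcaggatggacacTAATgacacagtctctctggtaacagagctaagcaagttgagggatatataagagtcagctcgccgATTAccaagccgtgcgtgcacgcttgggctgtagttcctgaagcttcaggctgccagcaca
Gcg: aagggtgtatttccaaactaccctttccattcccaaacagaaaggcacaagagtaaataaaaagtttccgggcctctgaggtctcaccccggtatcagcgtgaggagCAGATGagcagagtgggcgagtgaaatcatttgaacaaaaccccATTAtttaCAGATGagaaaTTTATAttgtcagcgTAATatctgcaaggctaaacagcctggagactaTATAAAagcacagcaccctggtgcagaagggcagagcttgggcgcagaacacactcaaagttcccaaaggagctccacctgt
Sst: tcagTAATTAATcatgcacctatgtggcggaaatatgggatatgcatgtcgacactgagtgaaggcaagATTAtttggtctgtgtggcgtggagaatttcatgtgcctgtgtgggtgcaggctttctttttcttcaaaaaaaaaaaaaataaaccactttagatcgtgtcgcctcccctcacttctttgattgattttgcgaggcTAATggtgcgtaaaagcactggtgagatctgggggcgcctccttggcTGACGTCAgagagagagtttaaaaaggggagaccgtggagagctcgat

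The promoters lie at chr1:261185869-261186168 (plus strand) for Ins1, chr1:207273756-207274055 (minus strand) for Ins2, chr4:176967847-176968146 (plus strand) for Iapp, chr3:67531484-67531783 (minus strand) for Gcg and chr11:90461296-90461595 (plus strand) for Sst. Ins1 and Ins2 stand on the same chromosome and were identical at 254 of 287 aligned bases (88.5%). This share leaves out 26 gap positions. By the same measure the other pairs of these promoters gave 69.2% to 76.4%, with 94 to 126 gap positions left out. TAAT matched at 6 starts in Ins1, 4 in Ins2, 4 in Iapp, 2 in Gcg and 5 in Sst, where 60.6% of all 33469 promoters of this length hold at least 1 match and 13.2% hold 4 or more. CATCTG matched 2 times in Ins1, 1 time in Ins2 and 2 times in Gcg, and 16.6% of all promoters hold it. TGACGTCA was matched in Sst alone of the 5, just after the annotated start (position 3) and not before it, and 1.83% of all promoters hold it. TATAAA was matched in Ins1, Ins2 and Gcg, against 14.2% of all promoters. These letters describe the windows only, and no binding was measured.

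Pancreatic polypeptide (Ppy) ranked 6 with 14.44, 14.55, 14.52, 14.61 and 14.50 on the 5 arrays, a mean of 14.52 ± 0.06, and its rank was 6 on each array. Its relatives peptide YY (Pyy) and neuropeptide Y (Npy) ranked 66 and 286, at 14.06 ± 0.06 and 13.42 ± 0.02. Ghrelin (Ghrl) read 11.84, 11.35, 11.25, 11.68 and 11.52, a mean of 11.53 ± 0.24 and rank 3288. Replicates 1 and 4, which were highest for Sst, were also highest for Ghrl, and replicate 3 was lowest for both.

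Of 17 listed hormone genes 16 had a value; 8 stood in the brightest 5% of genes (4.99% of all genes by construction), 9 in the brightest 25% and 4 in the dimmest 25%. Below Ghrl came adrenomedullin (Adm, 9.72 ± 0.28), gastrin (Gast, 8.70 ± 0.14) and proenkephalin (Penk, 7.23 ± 0.38). The gut peptides Gip (6.80 ± 0.35) and Cck (6.18 ± 0.28), the natriuretic peptide Nppc (6.03 ± 0.31) and the ACTH precursor Pomc (6.01 ± 0.10) lay in the dimmest 25%. The order of the hormones held on 5 of 5 arrays from Ins2 down to Iapp and from Sst down to Cck. Iapp stood above Sst on 4 of 5 arrays, Cck above Nppc on 3 and Nppc above Pomc on 2, so the order of these neighbours was not the same on all arrays.

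**Figure D2:**
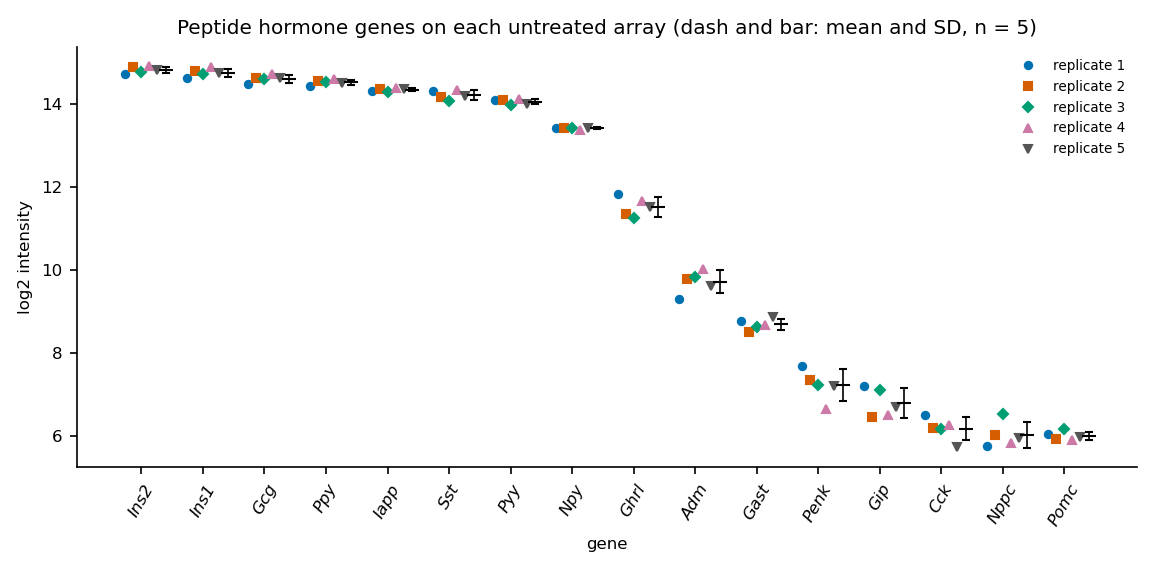
Log2 intensity of 16 peptide hormone genes on each of the 5 untreated arrays, one symbol per replicate, with the mean and SD (n = 5) as a dash and bar beside them. The 7 genes from Ins2 to Pyy have means of 14.06 to 14.82, Npy lies below them and Ghrl next, with replicates 1 and 4 on top; the genes from Penk on lie under 8.

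The enzymes and proteins that make and pack the hormones stood close to the brightest hormones on this scale. The brightest 1% of all genes spanned only 1.11 on it, and whether intensity levels off there was not tested. Of 21 listed genes of granins, prohormone processing and granule cargo 19 had a value; 14 were in the brightest 5% and 16 in the brightest 25%, with a median of 13.73 over the list against 9.82 over all genes. Carboxypeptidase E (Cpe), which trims the ends of cleaved prohormones, had 14.25 ± 0.07. The convertase Pcsk2 had 14.12 ± 0.04, its chaperone Scg5 14.22 ± 0.04 and the convertase inhibitor precursor Pcsk1n 14.05 ± 0.09. Chromogranin B (Chgb) read 14.26, 14.22, 14.14, 14.22 and 14.23 on the 5 arrays, a mean of 14.21 ± 0.04. Among the other granins, Scg3 had 14.13 ± 0.04, Scg2 13.73 ± 0.11 and chromogranin A (Chga) 13.58 ± 0.03. The granule membrane phosphatase Ptprn had 13.76 ± 0.04. The neuropeptide precursor Vgf (8.90 ± 0.21) and the monoamine transporter Slc18a1 (8.31 ± 0.23) were the dimmest members, while its relative Slc18a2 had 11.18 ± 0.11. Pcsk1 and the granule zinc transporter Slc30a8 are not analysed here.

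Folding and quality control in the endoplasmic reticulum were likewise high. Of 32 listed genes 31 had a value; 18 were in the brightest 5%, 28 in the brightest 25% and 0 in the dimmest 25%. The chaperone Hspa5 had 14.10 ± 0.05, the beta cell oxidase Ero1b 14.09 ± 0.07, the transcription factor Atf4 13.98 ± 0.02 and the chaperone Hsp90b1 13.96 ± 0.07. The stress factor Ddit3 (CHOP) read 12.91, 12.99, 13.40, 12.87 and 13.07 on replicates 1 to 5, and the pseudokinase Trib3, a gene switched on in the same response, read 12.35, 12.41, 12.96, 12.40 and 12.58. Both were highest on replicate 3. Replicate 3 was the highest array for 19 of the 31 genes, where it was highest for 26.1% of all genes, and replicate 1 was the lowest for 16 of 31, against 25.1% of all genes. The mean deviation of the list from its own 5-array mean was -0.06, 0.00, 0.08, -0.03 and 0.01 on replicates 1 to 5. Wfs1, the wolframin gene, was the dimmest at 9.18 ± 0.13, below Ppp1r15a at 10.60 ± 0.18.

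Glucose uptake and metabolism genes had values for 23 of 28 listed, with 7 in the brightest 5% and 16 in the brightest 25%. The glucose transporter of rodent beta cells, Slc2a2, read 13.42, 13.62, 13.39, 13.58 and 13.57 on the 5 arrays, a mean of 13.52 ± 0.10. Slc2a1 had 12.40 ± 0.09. The glycolytic enzymes Aldoa, Eno1 and Pgam1 had 14.15 ± 0.07, 13.50 ± 0.04 and 13.49 ± 0.03, and the mitochondrial dehydrogenases Idh2 and Glud1 had 13.25 ± 0.07 and 12.91 ± 0.03. The glycerol phosphate shuttle gene Gpd2 (10.77 ± 0.11) and the glucose-responsive factor Mlxipl (9.92 ± 0.09) stood lower, as did the citrate carrier Slc25a1 (10.51 ± 0.15). Gckr, a regulator of glucose phosphorylation in liver, was the dimmest at 5.82 ± 0.16 and the only one in the dimmest 25%. G6pc2 is not analysed here. Pyruvate carboxylase, listed under an older symbol and not counted above, had 10.94 ± 0.05 as Pc.

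Of 38 listed transcription factors of the beta cell line 28 had a value, with 3 in the brightest 5%, 12 in the brightest 25% and 5 in the dimmest 25%. Mafa, which drives insulin transcription in mature beta cells, ranked 39 of all genes and read 14.02, 14.23, 14.15, 14.24 and 14.17, a mean of 14.16 ± 0.09. Pax6, a factor of all islet endocrine cells, had 13.32 ± 0.07, and the zinc finger factor Myt1 13.08 ± 0.04. These were the members in the brightest 5%.

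Other factors named for beta cells stood close together just below. Pdx1, which is needed for pancreas formation and for the insulin gene, read 12.75, 12.35, 12.28, 12.57 and 12.53 on the 5 arrays, a mean of 12.50 ± 0.19. Neurod1, the E box factor, read 12.32, 12.59, 12.40, 12.52 and 12.55, a mean of 12.48 ± 0.11. Nkx6-1, the factor the study delivered to other islets, read 12.09, 12.22, 12.25, 12.33 and 12.27, a mean of 12.23 ± 0.09. Nkx2-2, a homeodomain factor of the same cells, read 12.25, 12.26, 12.07, 12.21 and 12.25, a mean of 12.21 ± 0.08. Pdx1 was highest on replicate 1 and lowest on replicate 3, a difference of 1.38-fold, against 1.18-fold between the lowest and highest array for Nkx6-1 and 1.14-fold for Nkx2-2. Neurod1 and Nkx6-1 were instead lowest on replicate 1. The ranges of Nkx6-1 and Nkx2-2 overlapped.

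The widely expressed factors Mlx and Nfe2l2 had 12.33 ± 0.08 and 12.14 ± 0.09. Rfx3 (11.79 ± 0.10), Esrrg (11.51 ± 0.10), Foxa2 (11.50 ± 0.06) and Isl1 (11.29 ± 0.17) followed, with Hnf4a at 10.60 ± 0.18, the cofactor Ldb1 at 10.44 ± 0.15, St18 at 10.08 ± 0.13 and the Wnt effector Tcf7l2 at 9.45 ± 0.11. Foxo1 had 8.45 ± 0.17, Onecut2 9.22 ± 0.38 and Gata6 7.72 ± 0.13. The nuclear receptors of the series title lay lower still: Nr4a1 read 6.85, 7.15, 6.82, 6.99 and 6.85, a mean of 6.93 ± 0.14, and Nr4a3 read 6.79, 6.85, 6.46, 6.91 and 7.11, a mean of 6.82 ± 0.24. Nr4a2 had 7.80 ± 0.12. Besides Nr4a3, the members in the dimmest 25% were Onecut1 (5.30 ± 0.22), Pax4 (5.22 ± 0.21), Foxa1 (4.46 ± 0.22) and Neurog3 (4.43 ± 0.21), the last a factor of endocrine progenitors. Insm1, Mnx1, Rfx6, Glis3, Sox9 and Bach2 were among the 10 listed factors not analysed here.

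Genes of the other endocrine cells had values for 21 of 26 listed, with 9 in the brightest 5% and 1 in the dimmest 25%. Apart from the hormones, the vitamin D binding protein gene Gc, a gene of alpha cells, ranked 21 with 14.33 ± 0.02, and the amino acid transporter Slc38a5, also of alpha cells, had 13.92 ± 0.05. Etv1 had 13.09 ± 0.09, the regulator of G protein signalling Rgs4 13.09 ± 0.07 and the glutamate receptor subunit Gria3 12.52 ± 0.10. The retinol carrier Rbp4 had 11.98 ± 0.11, and Hhex, the factor of delta cells, 10.82 ± 0.08. The alpha cell factors Irx2 and Irx1 had 9.81 ± 0.11 and 9.35 ± 0.16. Transthyretin (Ttr) had 9.26 ± 0.22, the serotonergic factor Fev 7.97 ± 0.16, the amino acid transporter Slc7a2 7.40 ± 0.10 and the peptidase Dpp4 7.25 ± 0.25. Pou3f4, another alpha cell factor, read 9.38, 7.89, 8.20, 8.58 and 8.51 on the 5 arrays with a mean of 8.51 ± 0.56, and the imprinted gene Peg10 read 7.34, 5.74, 5.63, 6.41 and 6.84 with a mean of 6.39 ± 0.72. For both genes replicate 1 was the highest and replicates 2 and 3 were the lowest.

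G protein-coupled receptors stood far lower than the secretory genes, at a list median of 6.99. Of 71 listed 59 had a value; 0 were in the brightest 5%, 7 in the brightest 25% and 28 in the dimmest 25% (25.0% of all genes by construction). The brightest was Adra2a, the inhibitory receptor for noradrenaline, with 12.29, 12.49, 12.25, 12.39 and 12.33, a mean of 12.35 ± 0.09. Next came the GABA receptor subunit Gabbr2 (12.16 ± 0.09), the adhesion receptor Adgrg1 (12.14 ± 0.05) and the incretin receptors. The other probe sets of Adra2a and Gabbr2 read far lower, at 7.51 ± 0.25 and 7.60 ± 0.13. Gipr, the receptor for the gut hormone GIP, read 11.82, 12.05, 12.23, 12.10 and 12.06, a mean of 12.05 ± 0.15. Glp1r, the receptor for GLP-1, read 11.932, 12.093, 12.026, 11.957 and 11.995, a mean of 12.001 ± 0.063. The ranges of Gipr and Glp1r overlapped, and Gipr varied more.

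Of the somatostatin receptors, Sstr3 had 11.73 ± 0.10, Sstr2 10.46 ± 0.29, Sstr1 6.99 ± 0.22, Sstr5 5.48 ± 0.23 and Sstr4 4.24 ± 0.23. The orphan receptors Gprc5b and Gpr158 had 11.51 ± 0.12 and 11.10 ± 0.09, the calcium-sensing receptor Casr 10.99 ± 0.09 and the glucagon receptor Gcgr 10.66 ± 0.12. The galanin receptor Galr2 (10.64 ± 0.10) lay above Galr1 (7.09 ± 0.25) and Galr3 (5.88 ± 0.22) on each array. Galr2 rests on a probe set marked x_at, a mark for probes that can bind other transcripts, and its other probe set read 8.65 ± 0.09, still above Galr1 and Galr3. The VIP and PACAP receptors Vipr2, Adcyap1r1 and Vipr1 had 10.46 ± 0.09, 9.11 ± 0.18 and 6.79 ± 0.21. The muscarinic receptor Chrm3, through which acetylcholine raises insulin secretion, had 9.38 ± 0.12, the purine receptor P2ry1 9.58 ± 0.21 and the vasopressin receptor Avpr1b 8.90 ± 0.23. The dopamine receptor Drd2 (5.57 ± 0.17), the cannabinoid receptor Cnr1 (5.31 ± 0.34), the ghrelin receptor Ghsr (4.41 ± 0.19) and the oxytocin receptor Oxtr (3.78 ± 0.19) were in the dimmest 25%. The prostaglandin receptor Ptger3 had the largest SD of the list, at 8.49, 9.57, 9.02, 9.10 and 8.46 on the 5 arrays and a mean of 8.93 ± 0.46. Other members between the brightest 25% and the dimmest 25% were Gprc5c (10.52 ± 0.10), Gabbr1 (9.87 ± 0.07), Npy1r (9.61 ± 0.16), the secretin receptor Sctr (9.00 ± 0.18), the sphingolipid and lysolipid receptors S1pr2 (8.81 ± 0.06) and Lpar1 (8.62 ± 0.14), Lgr4 (8.35 ± 0.07) and Ffar2 (6.99 ± 0.10). The adenosine receptors Adora2a, Adora2b and Adora1 had 9.16 ± 0.06, 8.26 ± 0.24 and 7.10 ± 0.23. The serotonin receptors Htr2b, Htr1d and Htr1f had 6.78 ± 0.21, 4.09 ± 0.05 and 3.56 ± 0.15, and the other adrenergic receptors Adra2b, Adra2c and Adrb1 had 6.41 ± 0.14, 6.12 ± 0.09 and 4.95 ± 0.06. The purine receptors P2ry2, P2ry12 and P2ry14 had 6.43 ± 0.25, 6.22 ± 0.30 and 4.59 ± 0.17, and the muscarinic receptors Chrm4 and Chrm1 6.40 ± 0.21 and 4.40 ± 0.22. The peptide receptors Kiss1r, Calcrl, Ghrhr, Npy4r, Cckbr and Npy5r had 5.77 ± 0.14, 5.42 ± 0.15, 5.19 ± 0.14, 4.91 ± 0.07, 4.56 ± 0.20 and 3.62 ± 0.10. The orphan receptor Gpr27 had 6.20 ± 0.17, and the glutamate receptors Grm5 and Grm7 5.86 ± 0.08 and 3.37 ± 0.14, where Grm7 was the dimmest of the list. Ffar1, Gpr119, Mtnr1b and Cckar are not analysed here.

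Of 48 listed receptors for growth factors, lactogens, cytokines and nuclear hormones 43 had a value, 1 in the brightest 5%, 11 in the brightest 25% (7 with the average over a gene's probe sets) and 13 in the dimmest 25%. The interleukin-1 receptor Il1r1 was the brightest, at 13.46, 13.62, 13.56, 13.62 and 13.59 and a mean of 13.57 ± 0.07. Its other probe sets had 11.80 ± 0.27 and 8.46 ± 0.19. The neurotrophic receptor kinase Ret had 12.39 ± 0.08 and the thyroid hormone receptor Thrb 12.29 ± 0.13. The prolactin receptor Prlr, which drives beta cell growth in pregnancy, read 12.42, 12.04, 11.76, 12.10 and 12.16, a mean of 12.09 ± 0.24. Replicate 3 was its lowest array, and its SD was above that of the growth hormone receptor Ghr (11.81 ± 0.11). The type 1 IGF receptor Igf1r had 11.84 ± 0.06 and the insulin receptor Insr 8.98 ± 0.08. The fibroblast growth factor receptors Fgfr3, Fgfr4, Fgfr1 and Fgfr2 had 10.80 ± 0.21, 10.50 ± 0.12, 10.12 ± 0.08 and 9.63 ± 0.14. The EGF receptor Egfr had 9.46 ± 0.16, whereas its relatives Erbb2 and Erbb3 had 6.48 ± 0.18 and 5.69 ± 0.31 and the HGF receptor Met 4.72 ± 0.14. The receptors for TGF-beta, BDNF and IGF2, Tgfbr1, Ntrk2 and Igf2r, had 12.09 ± 0.09, 11.89 ± 0.07 and 11.70 ± 0.09. The glucocorticoid receptor Nr3c1 had 11.65 ± 0.08, and the interferon gamma and TNF receptors Ifngr1 and Tnfrsf1a had 11.43 ± 0.11 and 11.30 ± 0.11. The PDGF receptors Pdgfrb and Pdgfra, genes of stromal cells, had 10.86 ± 0.16 and 10.48 ± 0.17. The leptin receptor Lepr had the largest SD of the list, at 6.35, 6.29, 6.09, 5.65 and 5.19 and a mean of 5.91 ± 0.49. The lipid-activated nuclear receptors Pparg and Ppara had 5.94 ± 0.35 and 4.86 ± 0.23, and the vitamin D receptor Vdr 5.97 ± 0.41. The BMP and activin receptors Bmpr1a, Bmpr2, Acvr2a and Acvr1c had 11.04 ± 0.08, 9.96 ± 0.09, 9.74 ± 0.10 and 7.49 ± 0.14, the ephrin gene Efna5 11.04 ± 0.08 and the ephrin receptors Epha7 and Epha5 7.19 ± 0.10 and 6.54 ± 0.28. The neurotrophin receptor Ngfr had 8.88 ± 0.10, and Gfra1 and Gfra4, the ligand-binding partners of Ret, 6.09 ± 0.25 and 5.26 ± 0.27. Of other nuclear receptors, Nr1d1 had 10.55 ± 0.08, Nr1h2 10.05 ± 0.10, Thra 8.63 ± 0.07, Rxrg 5.93 ± 0.40 and Rxra 4.72 ± 0.24. The interleukin-6 receptor, listed under an older symbol and not counted above, had 10.36 ± 0.06 as Il6r. The oestrogen receptor Esr1 was the dimmest, at 3.60 ± 0.14.

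Both subunits of the ATP-sensitive potassium channel stood in the brightest 25%. The pore subunit Kcnj11 read 12.66, 12.52, 12.60, 12.56 and 12.56 on the 5 arrays, a mean of 12.58 ± 0.05. The sulfonylurea receptor Abcc8 read 12.58, 12.48, 12.37, 12.56 and 12.50, a mean of 12.50 ± 0.08. Their ranges overlapped, and the vascular counterparts Kcnj8 and Abcc9 had 8.20 ± 0.10 and 10.81 ± 0.19. A second probe set of Kcnj11 had 12.20 ± 0.07 and the dimmest one 7.52 ± 0.27. The other probe sets of Abcc9 had 6.96 ± 0.24 and 5.12 ± 0.13.

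Of 60 listed potassium channel genes 49 had a value; 2 were in the brightest 5%, 4 in the brightest 25% (2 with the probe set average) and 21 in the dimmest 25%. Besides Kcnj11 and Abcc8, the members of the brightest 25% were the large-conductance channel Kcnma1 (12.99 ± 0.11) and the channel-interacting protein Kcnip1 (12.97 ± 0.05). The other probe sets of Kcnma1 read far lower, at 9.22 ± 0.24 and 8.71 ± 0.09. The next probe set of Kcnip1 had 9.82 ± 0.28, and its dimmest one lay at the level of the dimmest 25% of genes. The ether-a-go-go channels Kcnh6 and Kcnh2 had 11.29 ± 0.05 and 10.08 ± 0.09, and Kcnip3 had 11.23 ± 0.17. The voltage-gated channels Kcna2, Kcna4, Kcna5 and Kcnb2 had 9.69 ± 0.06, 9.55 ± 0.15, 8.92 ± 0.15 and 8.82 ± 0.24. The 2-pore channels Kcnk3, Kcnk5, Kcnk2 and Kcnk1 had 9.09 ± 0.30, 8.26 ± 0.29, 7.54 ± 0.22 and 7.53 ± 0.16. The G protein-gated channels Kcnj5, Kcnj3, Kcnj6 and Kcnj9 had 9.54 ± 0.09, 7.52 ± 0.19, 6.43 ± 0.28 and 3.91 ± 0.20, and the small-conductance channels Kcnn3 and Kcnn1 9.36 ± 0.09 and 6.98 ± 0.15. Kcnc1, a fast delayed rectifier, had the largest SD of the list, at 6.25, 5.74, 5.44, 6.54 and 6.44 and a mean of 6.08 ± 0.47. Of other voltage-gated channels, Kcnc2 had 8.80 ± 0.19, Kcnh1 7.35 ± 0.41, Kcnq5 7.23 ± 0.30, Kcnd2 7.04 ± 0.37, Kcnc4 5.73 ± 0.30, Kcnd3 5.43 ± 0.19, Kcna1 4.71 ± 0.12 and Kcnh5 4.48 ± 0.22. The modifier subunits Kcng2 and Kcng3 had 8.01 ± 0.08 and 3.65 ± 0.06, the accessory subunits Kcnip4 and Kcnip2 8.72 ± 0.21 and 5.29 ± 0.14, Kcne2 and Kcne1 5.56 ± 0.28 and 5.40 ± 0.09, and Kcnmb4 and Kcnmb1 5.88 ± 0.22 and 5.18 ± 0.10. The 2-pore channels Kcnk12, Kcnk10 and Kcnk9 had 7.34 ± 0.09, 5.99 ± 0.20 and 3.96 ± 0.21, the calcium-activated channel Kcnn4 6.77 ± 0.26, the sodium-activated channel Kcnt1 5.62 ± 0.16 and the inward rectifier Kcnj12 5.03 ± 0.29. Kcnq1 had 6.51 ± 0.28, and Kcna3 (3.49 ± 0.16) and the silent subunit Kcnv1 (3.44 ± 0.08) closed the order. Kcnk16 was among the 11 not analysed here.

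Calcium, sodium and other ion channel genes had values for 67 of 75 listed, with 3 in the brightest 5%, 13 in the brightest 25% and 22 in the dimmest 25%. The endoplasmic reticulum calcium pumps Atp2a3 and Atp2a2 were the brightest, at 14.26 ± 0.04 (rank 25) and 13.70 ± 0.07, followed by the chloride transporter Clcn3 (13.04 ± 0.05). The other probe set of Atp2a3 had 9.75 ± 0.46, and those of Atp2a2 ran from 12.97 down to 3.77. Of the voltage-gated calcium channels, the auxiliary subunits Cacna2d1, Cacnb3 and Cacnb2 had 12.92 ± 0.16, 12.60 ± 0.07 and 11.10 ± 0.03. The pore subunits of L-type channels, which carry most of the calcium that triggers insulin release, stood lower: Cacna1c read 10.23, 10.38, 10.40, 10.53 and 10.34, a mean of 10.37 ± 0.11, and Cacna1d read 10.04, 10.15, 10.15, 10.14 and 10.11, a mean of 10.12 ± 0.05. On these probe sets Cacna1c was above Cacna1d on each array. The other probe set of Cacna1c had 6.78 ± 0.13, and those of Cacna1d had 6.65 ± 0.29 and 4.81 ± 0.10. Probe sets bind unequally, so this order is not one of RNA amounts. The T-type gene Cacna1h had 9.27 ± 0.18, the P/Q-type gene Cacna1a 6.54 ± 0.17 and the R-type gene Cacna1e 4.76 ± 0.20. The N-type gene Cacna1b had 7.76 ± 0.32, the T-type genes Cacna1g and Cacna1i 7.67 ± 0.09 and 6.49 ± 0.12, and the L-type gene of muscle, Cacna1s, 4.82 ± 0.27. Of other auxiliary subunits, Cacnb1 had 7.41 ± 0.14, Cacna2d3 7.31 ± 0.15, Cacng4 5.87 ± 0.44, Cacng5 3.89 ± 0.12, Cacnb4 3.71 ± 0.18 and Cacng3 3.67 ± 0.11, the dimmest of the list. Cacng4 had its largest SD.

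Among sodium channels the beta subunits Scn2b and Scn3b had 11.54 ± 0.07 and 11.33 ± 0.09 and the pore subunit Scn3a 11.31 ± 0.07, ahead of Scn7a (10.25 ± 0.13), Scn9a (9.24 ± 0.07), Scn1a (7.48 ± 0.12), Scn2a (5.85 ± 0.16), Scn8a (5.49 ± 0.24), Scn10a (5.27 ± 0.09) and Scn4a (4.44 ± 0.15). A further beta subunit, Scn4b, read 5.31, 4.72, 5.01, 5.08 and 5.85, a mean of 5.19 ± 0.42. The gap junction gene Gja1 had 12.51 ± 0.16 and Gjd2, connexin 36 of beta cells, 10.35 ± 0.17. The other probe sets of Gja1 had 4.64 ± 0.21 and 3.30 ± 0.08. The IP3 receptors Itpr1, Itpr3 and Itpr2 had 12.06 ± 0.05, 11.22 ± 0.11 and 8.56 ± 0.06, and the ryanodine receptors Ryr2, Ryr1 and Ryr3 10.13 ± 0.07, 7.38 ± 0.12 and 7.28 ± 0.32. The pacemaker channels Hcn4, Hcn3 and Hcn2 had 8.11 ± 0.11, 7.08 ± 0.09 and 6.52 ± 0.20, the calcium-activated chloride channel Ano1 9.89 ± 0.06 and the mechanosensitive channel Piezo1 7.61 ± 0.16. The plasma membrane calcium pump Atp2b1 had 12.40 ± 0.10 and the volume-regulated anion channel gene Lrrc8a 12.43 ± 0.04. Of the TRP channels, Trpc1 had 11.60 ± 0.06, Trpm7 11.30 ± 0.23, Trpm3 9.97 ± 0.08, Trpv2 8.86 ± 0.12, Trpm4 7.94 ± 0.12, Trpc4 7.003 ± 0.212 and Trpv1 5.14 ± 0.09. The ATP-gated channels P2rx4 and P2rx3 had 10.95 ± 0.08 and 10.28 ± 0.20, and P2rx1, P2rx2 and P2rx7 6.57 ± 0.20, 5.98 ± 0.23 and 4.85 ± 0.24. The glutamate receptor subunits Grin1, Grik5 and Grin2c had 9.10 ± 0.09, 7.46 ± 0.13 and 6.87 ± 0.18, and the glycine and GABA receptor subunits Glra1 and Gabra4 4.59 ± 0.11 and 4.21 ± 0.21. The glutamate receptor subunit Gria2 had 11.90 ± 0.12, and the chloride channel Cftr, a gene of duct cells, 5.04 ± 0.30.

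The proteins that fuse granules with the membrane had values for 31 of 32 listed genes, with 3 in the brightest 5%, 13 in the brightest 25% and 7 in the dimmest 25%. The SNARE gene Snap25 had 13.43 ± 0.05, Syt4 13.40 ± 0.10 and the granule GTPases Rab27a and Rab3b 13.29 ± 0.06 and 12.85 ± 0.11. The SNARE partners Vamp2 and Stx1a had 11.88 ± 0.17 and 8.63 ± 0.10. Syt7 and Syt9, calcium sensors of exocytosis, had 6.80 ± 0.21 and 6.28 ± 0.26, and Syt1, the sensor of synapses, was the dimmest at 4.20 ± 0.24, next to Syt11 (4.52 ± 0.25). Syt13 had 8.64 ± 0.34. The granuphilin gene Sytl4 had the largest SD of the list, at 9.21, 8.27, 7.72, 8.83 and 8.96 on the 5 arrays and a mean of 8.60 ± 0.60.

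**Figure D3:**
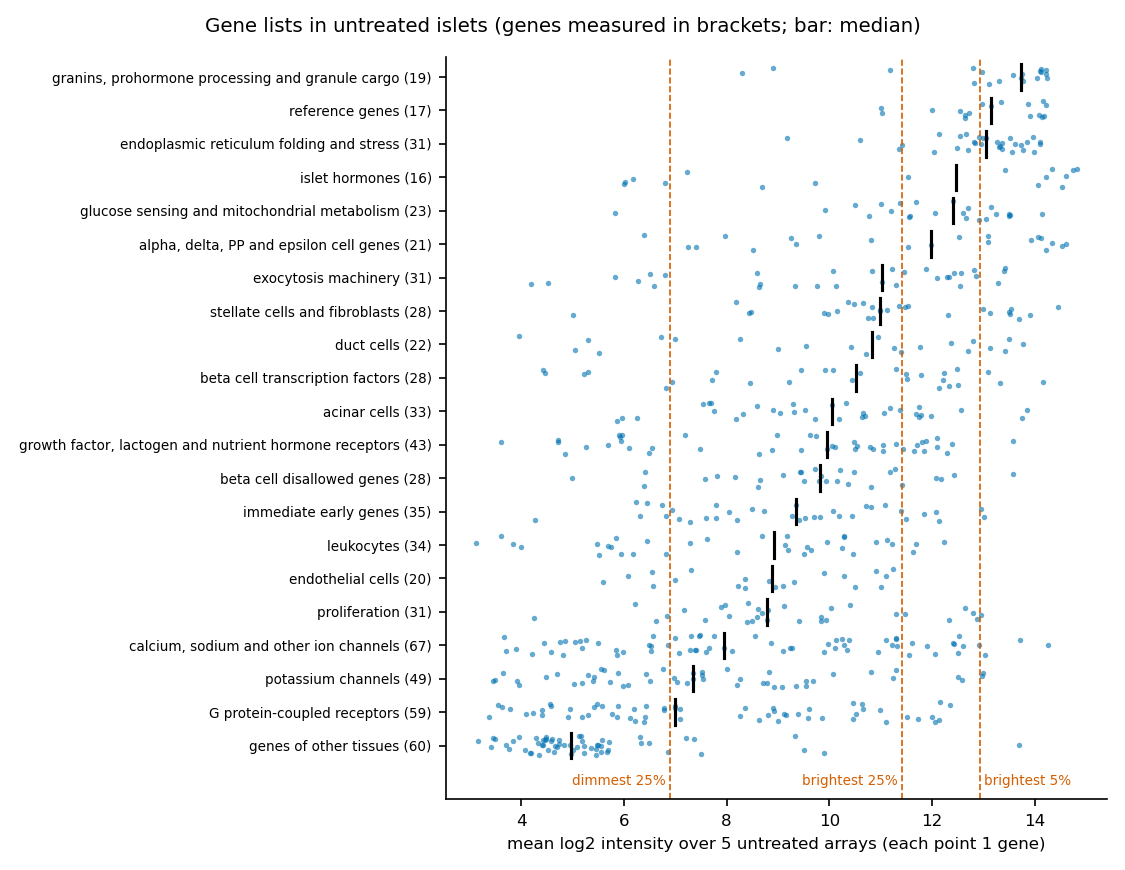
Each point is the mean log2 intensity of 1 gene over the 5 untreated arrays, in 21 gene lists ordered by their median (black bar); the dashed lines mark the brightest 5%, the brightest 25% and the dimmest 25% of all genes. The granule list has the highest median (13.73) and the genes of other tissues the lowest (4.96), and the G protein-coupled receptors (6.99) the next lowest.

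Genes usually kept silent in beta cells, called disallowed, had values for 28 of 30 listed, with a list median of 9.81 beside 9.82 for all genes. Of these, 5 stood in the brightest 25% and 3 in the dimmest 25%. C1qbp had 13.57 ± 0.08, catalase (Cat) 12.43 ± 0.07, the RNA-binding protein gene Zfp36l1 12.18 ± 0.10 and lactate dehydrogenase Ldha 12.08 ± 0.14. The lactate transporter Slc16a1 had 9.51 ± 0.23, and the hexokinase genes Hk1 and Hk2 had 7.82 ± 0.24 and 4.99 ± 0.14. The neuronal repressor Rest had the largest SD of the list, at 6.62, 5.91, 6.30, 6.47 and 6.70 and a mean of 6.40 ± 0.31, and Maf had 9.45 ± 0.28. Whole islets hold cell types in which these genes are not silent, and their part in these levels was not tested.

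Immediate early genes had values for 35 of 37 listed genes, with 6 in the brightest 25% and 6 in the dimmest 25%. Klf6 had 13.02 ± 0.06, Jund 12.96 ± 0.06, Egr1 12.14 ± 0.07 and Klf10 12.07 ± 0.04. Egr3 was the dimmest, at 4.27 ± 0.16, below Fosl1 at 6.24 ± 0.15. Myc read 9.84, 10.29, 10.54, 9.75 and 9.99 on the 5 arrays, highest on replicate 3, and Ccn1 read 6.66, 6.89, 5.95, 6.38 and 6.36, highest on replicate 2. The genes of the list were highest on replicate 2 in 14 of 35 cases, against 19.4% of all genes.

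Of 32 listed cell cycle genes 31 had a value, with 6 in the brightest 25%. These 6 were the clamp gene Pcna (12.95 ± 0.07), the D cyclins Ccnd2 (12.88 ± 0.18) and Ccnd1 (12.64 ± 0.12), the kinase gene Cdk4 (12.34 ± 0.04) and the inhibitors Cdkn1b (12.79 ± 0.13) and Cdkn1a (11.47 ± 0.12). The mitotic genes Mki67 and Ccna2 had 9.12 ± 0.14 and 7.97 ± 0.25. Bub1 had 8.81 ± 0.30 and the inhibitor Cdkn1c, with the largest SD of the list, 6.22 ± 0.34. Cdk6, a G1 kinase, was the dimmest at 4.26 ± 0.09. Replicate 4 was the lowest array for 12 of 31 genes, against 22.1% of all genes.

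Cells other than endocrine cells were also visible. Of 38 listed acinar genes, those of the exocrine cells that make digestive enzymes, 33 had a value; 2 were in the brightest 5%, 8 in the brightest 25% and 3 in the dimmest 25%. The phospholipase Pla2g1b had 13.86 ± 0.20 and chymotrypsinogen Ctrb1 13.76 ± 0.21, followed by Reg3b (12.57 ± 0.31) and trypsinogen Prss1 (11.98 ± 0.21). The lipase-related gene Pnliprp1 had 9.04 ± 0.57, and Cuzd1 (5.97 ± 0.18) and Dmbt1 (5.88 ± 0.46) were the dimmest. The amylase gene Amy1, listed under an older symbol and not counted here, had 4.41 ± 0.13. Carboxypeptidase Cpa1 read 10.98, 11.91, 11.54, 11.71 and 10.77 on the 5 arrays, a mean of 11.38 ± 0.49. Amylase Amy2a3 read 11.32, 12.27, 11.76, 12.10 and 11.30, a mean of 11.75 ± 0.44. Ptf1a, the transcription factor of acinar cells, read 7.27, 8.65, 7.37, 7.79 and 6.66, a mean of 7.55 ± 0.73. In Cpa1, Amy2a3 and Ptf1a replicates 2 and 4 were the highest arrays and replicate 5 the lowest.

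This order was shared across the list. Replicates 2 and 4 both stood above the other 3 arrays in 27 of 33 acinar genes, against 9.71% of all genes; this count was chosen after the values were seen. Replicate 2 was the highest array for 26 of 33 (19.4% of all genes) and replicate 5 the lowest for 23 of 33 (17.6% of all genes). The mean deviation of the list was -0.17, 0.37, -0.07, 0.27 and -0.41 on replicates 1 to 5, a span of 0.79 or 1.72-fold. What sets this order was not tested. The median SD of the list was 0.35, against 0.12 for all genes, and 0.31 to 0.40 when any 1 array was left out. Bhlha15, an acinar factor, was an exception at 10.64 ± 0.04, with its arrays within 0.10 of each other. On those same arrays the beta cell transcription factors deviated by -0.01, 0.04, -0.02, -0.01 and 0.00, and the hormone genes by 0.04, -0.03, 0.03, 0.00 and -0.04. The hormone mean takes in bright and dim genes that went different ways. Ins1, Ins2, Gcg and Ppy were each lowest on replicate 1 and highest on replicate 4. Replicate 4 was highest for 8 of 16 hormone genes, against 14.6% of all genes. Replicate 1 was highest for 4 (25.7% of all genes): Ghrl, Penk, Gip and Cck.

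**Figure D4:**
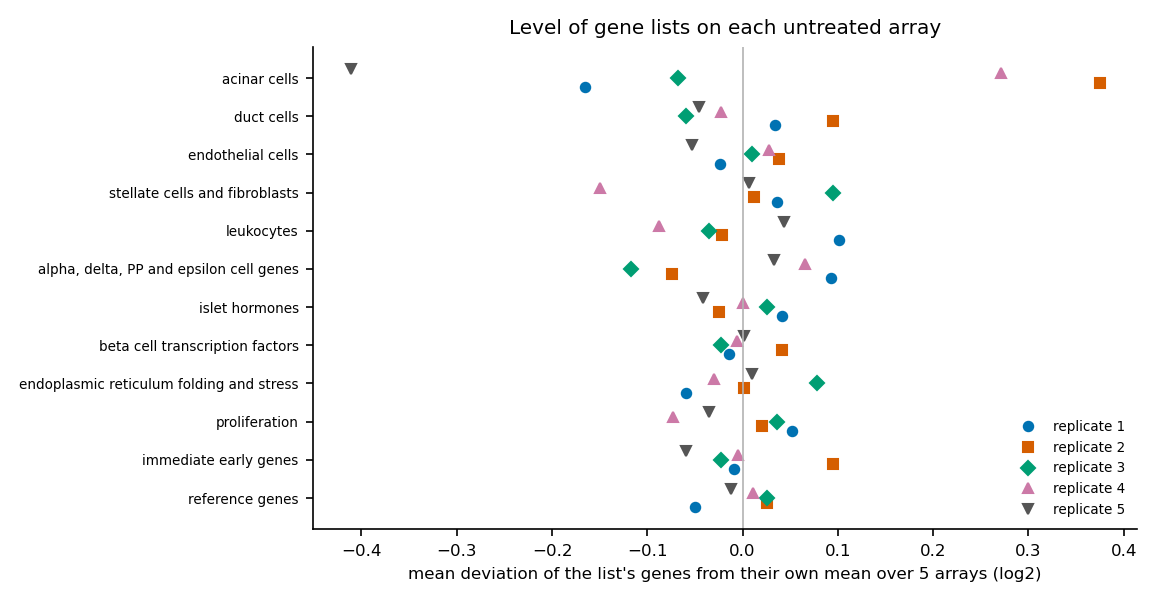
For 12 gene lists, the mean deviation of the list's genes from their own mean over 5 arrays is plotted on the log2 scale, one symbol per replicate. The acinar list spans 0.79, from replicate 5 to replicate 2, and the other lists span at most 0.24.

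The duct list had values for 22 of 25 genes, with 4 in the brightest 5% and 8 in the brightest 25%: the keratins Krt18 (13.78 ± 0.07), Krt7 (13.42 ± 0.03) and Krt8 (13.12 ± 0.08) and the epithelial adhesion gene Epcam (13.49 ± 0.04) led it. Islet cells are known to express several of these. Krt19 (10.42 ± 0.19) and Cftr stood lower, and the list as a whole had a median of 10.82. Which cells the signal of this list came from was not tested. Tspan8 had 9.56 ± 0.23, and Cldn1 was the dimmest at 3.97 ± 0.16. The stellate cell and fibroblast list had values for all 28 genes, with 8 in the brightest 5% and 11 in the brightest 25%. Matrix Gla protein (Mgp) ranked 8 at 14.45 ± 0.03. The collagen genes Col3a1, Col1a1 and Col1a2 had 13.91 ± 0.07, 13.70 ± 0.11 and 13.53 ± 0.16, and vimentin (Vim) 13.54 ± 0.10. Lox, a collagen cross-linking enzyme, had the largest SD, with 9.98 ± 0.30, and desmin (Des) had 8.47 ± 0.23. The pericyte gene Cspg4 (8.18 ± 0.21) and Gfap (5.02 ± 0.15), a gene of quiescent stellate cells, were the dimmest. Replicate 4 was the lowest array for 18 of these 28 genes, against 22.1% of all genes, and Col1a1 read 13.79, 13.74, 13.75, 13.51 and 13.71.

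None of 20 endothelial genes with a value stood in the brightest 25%, and 7 stood in the brightest 50%. With the average over a gene's probe sets in place of the brightest one, 3 stood in the brightest 25%. The VEGF receptor Kdr had 11.24 ± 0.20, Ramp2 11.11 ± 0.13, the adhesion gene Pecam1 11.01 ± 0.17 and endoglin (Eng) 10.91 ± 0.12, while von Willebrand factor (Vwf) had 7.002 ± 0.205, Nos3 6.08 ± 0.21 and Flt4 5.60 ± 0.09. Esam had 9.32 ± 0.32. Claudin 5 (Cldn5) read 7.31, 7.72, 5.91, 7.15 and 8.42, an SD of 0.92 that was the largest of all list members. Of 34 leukocyte genes with a value 3 were in the brightest 25% (6 with the probe set average) and 13 in the dimmest 25%. The chemokine Ccl2 had 12.23 ± 0.23, the MHC class II chain Cd74 11.69 ± 0.14, the macrophage receptor chain Fcer1g 11.62 ± 0.11 and the class II chain RT1-Da 11.23 ± 0.11. The chemokine Cxcl1 had the largest SD, with 5.94 ± 0.47. The T cell genes Lck, Cd8a, Cd2 and Cd4 had 6.82 ± 0.10, 5.84 ± 0.36, 5.75 ± 0.17 and 5.69 ± 0.20, and Cd3e, Cd3d and Cd3g had 3.99 ± 0.08, 3.85 ± 0.16 and 3.61 ± 0.19, all in the dimmest 25%. The B cell gene Ms4a1 was the dimmest, at 3.13 ± 0.09. The highest array for 14 of 34 leukocyte genes was replicate 1, against 25.7% of all genes.

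The lower end of the scale was gauged with 60 genes of other tissues that had a value, of 65 listed. Of these, 53 stood in the dimmest 25%, with a list median of 4.96. Albumin (Alb) had 4.84 ± 0.25, the sperm gene Prm1 3.85 ± 0.25, prolactin (Prl) 4.43 ± 0.19 and the muscle gene Ckm 5.69 ± 0.16. Myh1, a myosin of fast muscle, went against the others at 13.70 ± 0.06 on the array's annotation, and its 5 probe sets all lay between 12.50 and 13.70. Apoh followed at 9.90 ± 0.17, with Acta1 at 9.51 ± 0.17 and Krt10 at 9.33 ± 0.03. At the other end, Cyp3a2 had 3.41 ± 0.08, and Myl1 had 4.18 ± 0.44. What the probe sets named Myh1 bind was not tested, and the other skeletal myosins Myh2 and Myh4 had 5.47 ± 0.57 and 3.16 ± 0.13.

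Of all 14217 genes 43 were counted as ribosomal protein genes by their symbols, and 38 of these stood in the brightest 5%. Among the 30 brightest genes 12 encoded ribosomal proteins, led by Rpl19 (14.78 ± 0.02, rank 2), with Rpl5 (14.40 ± 0.03) and Rpl41 (14.39 ± 0.01) next. Rpl27a, Rps28, Rpl26, Rpl7a, Rpl4, Rps3a, Rps23, Rpl12 and Rplp0 were the other 9, at means of 14.23 to 14.38. The others, beside the hormones, Gc, Mgp, Atp2a3 and Cpe, included Resp18 (rank 4), a protein of endocrine secretory cells, at 14.66 ± 0.04. The G protein subunit Gnas had 14.42 ± 0.05, the lysosomal protease Ctsb 14.45 ± 0.02, the tetraspanin Cd63 14.40 ± 0.03, galectin 3 (Lgals3) 14.36 ± 0.03 and clusterin (Clu) 14.28 ± 0.03. Rack1, a ribosome-bound scaffold, had 14.26 ± 0.03, mesothelin (Msln) 14.23 ± 0.05 and Mrfap1 14.23 ± 0.05. The brightest 1% of genes, 142 in number, spanned 1.11 on the log2 scale, with a median SD of 0.04 and a median step between neighbours of 0.0036. Single ranks near the top are therefore not exact.

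The spread between arrays depended on the level. The median SD was 0.18 in the dimmest 25% of genes, 0.15 and 0.10 in the next groups and 0.07 in the brightest 25%, and 0.12 over all genes, which is 1.08-fold. An SD above 0.5 was found for 113 of 14217 genes (0.795%), 74 of them in the dimmest 25% and 0 in the brightest 50%. Of the 100 brightest named genes, Rpl4 (14.35 ± 0.01), Itm2b (14.09 ± 0.01), Rpl41, Rpl23 (14.23 ± 0.01) and superoxide dismutase Sod1 (14.16 ± 0.02) had the smallest SDs, at 0.01 to 0.02. Ins1, Ins2 and Gcg, at 0.08 to 0.10, varied more than these. In the granule list the highest SD was 0.23, for Slc18a1.

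**Figure D5:**
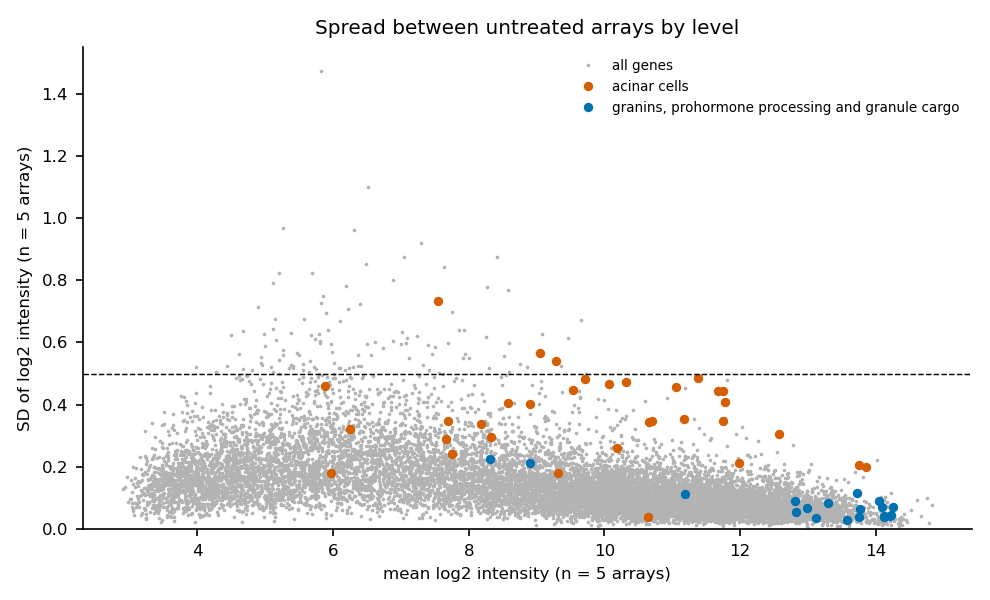
The SD over the 5 untreated arrays is plotted against the mean log2 intensity for 14217 genes (grey), with the acinar genes in orange, the granule genes in blue and a dashed line at an SD of 0.5. Most genes lie in a band that narrows with level, from a median of 0.18 to 0.07, while most acinar genes lie above it and the granule genes lie within it.

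In the brightest 50% of genes, the 20 named genes of highest SD had SDs of 0.36 to 0.49, and 7 of the 20 were acinar genes on the list: Cpa1, Spink1, Cela2a, Gp2, Reg3a, Amy2a3 and Reg1a. Of all 7108 genes of the brightest 50%, 17 are on that list. The elastase Cela2a read 9.81, 10.51, 10.18, 10.42 and 9.38, and the granule membrane protein Gp2 read 10.83, 11.58, 11.05, 11.40 and 10.43. Both followed the order of Cpa1, with replicate 2 highest and replicate 5 lowest.

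Of the other 13, Cyp1a1 (9.49, 10.25, 9.96, 10.17 and 9.51) also had replicates 2 and 4 above the other 3. Gad2, the GABA-making enzyme of islets, read 9.37, 10.12, 10.33, 9.82 and 10.37, the collagen gene Col13a1 read 9.34, 10.08, 10.43, 10.05 and 9.66 and the growth factor Ptn read 9.67, 10.49, 10.46, 10.39 and 10.56. All of these were lowest on replicate 1. The coactivator Med1 read 11.04, 10.21, 10.06, 10.49 and 10.27, Wac, a protein of histone ubiquitination, read 10.43, 9.71, 9.58, 10.13 and 10.38, and the DNA-binding protein Purb read 12.24, 11.48, 11.36, 11.81 and 11.97. These were highest on replicate 1 and lowest on replicate 3, as were Slc3a1 (11.00, 10.29, 10.05, 10.72 and 10.91) and C2cd4b (11.35, 11.01, 10.29, 11.21 and 10.74). Bckdhb, an enzyme of branched-chain amino acid breakdown, read 11.66, 11.62, 12.66, 11.49 and 11.61, with replicate 3 at 2.25-fold the lowest array, and Stbd1 read 9.90, 10.13, 10.83, 9.98 and 10.00, also highest on replicate 3. Rprd2 read 10.75, 11.18, 10.96, 11.08 and 11.94, with replicate 5 on top, and the chemokine Cxcl11 (10.46, 10.58, 9.67, 10.37 and 10.18) was highest on replicate 2.

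Reference genes in common use differed little, as did bright genes in general. Of 24 listed 17 had a value, with 15 in the brightest 25%. Their median SD was 0.06, beside 0.07 for all genes of the brightest 25%. The brightest was Rplp0 at 14.23 ± 0.04, followed by Rpl13a, which read 14.05, 14.20, 14.20, 14.22 and 14.21, Rpl3 (14.15 ± 0.03) and Eef1a1 (14.14 ± 0.10). Hprt1 had 12.98 ± 0.04, Polr2a 11.02 ± 0.16 and Tbp 11.01 ± 0.08. Replicate 1 was the lowest array for 9 of the 17, against 25.1% of all genes.

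Where a gene had several probe sets their levels differed widely. This held for 4525 of 14217 genes, and the median gap between the brightest and dimmest probe set of such a gene was 2.64 on the log2 scale; the gap was above 1 for 3616 of them (79.9%). Isl1 had a second probe set at 3.23 ± 0.14 and Hnf4a at 4.76 ± 0.07, and the dimmest of 3 for Nr4a3 lay at 4.19. Each hormone of the check above, Mafa, Pax6, Pdx1, Nkx6-1, Glp1r and Abcc8 had 1 probe set, so their position rests on that probe set alone.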

How the data were processed

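Total RNA of whole islets was labelled with biotin and measured on 1-colour rat expression arrays. The authors deposited 1 intensity per probe set and array, made with RMA (background correction, normalization and summary) per the submitters' processing notes; its version and array annotation are not given in the sources used here. The deposited intensities run from 6.25 to 35765 over the untreated arrays and are on a linear scale, so log2 was taken here, which the design had assumed done. Depth does not apply to arrays, and 5 arrays limit the precision. Whether the arrays hold separate animals is not given, so SDs measure the spread between these arrays.

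Of 31042 probe sets other than 57 controls, 20826 named 1 gene symbol in the platform annotation, 436 several and 9780 none; the last 10216 were not used. Each of 14217 genes kept the probe set brightest on average in the 5 arrays. Gene names, promoters and coordinates came from RefSeq (GRCr8), where the gene numbers of 20758 probe sets matched. A gene had 1 array apart where the gap to the nearest array, as a share of the range, passed Dixon's 95% critical value; the code was tested on simulated data. There is 1 group and no test between groups.

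Named were the 30 brightest genes, the 20 of highest SD in the brightest 50%, the 5 of lowest SD among the 100 brightest, each measured member of the hormone, beta cell factor, other endocrine, receptor and channel lists, and in other lists the 4 of highest mean, 2 of lowest mean and 2 of highest SD; other genes named were chosen after their values were seen. The 21 gene lists (766 symbols, 673 with a value; a gene listed under 2 symbols was counted once) and the islets described were chosen with earlier results of these data known. Alternatives changed the normalization, the probe set rule, the average and the arrays used. Python 3.11.15, pandas 2.3.3, numpy 2.4.6, biopython 1.88 and matplotlib 3.10.9 were used.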

Additional observations from a re-analysis of the deposited data

Results flagged for a closer look

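Of 462 genes named here, 34 (7.36%) had 1 array apart from the other 4, beside 6.44% of all genes, and chance gives about 1 in 20. The value given for each is the gap to the nearest array as a share of the range over the 5 arrays. No explanation was tested. Replicate 1 lay above the others for Adam33 (0.739), Adra2b (0.734), Ccl21 (0.827), Chrm4 (0.780) and Ghr (0.748) and below them for Gnas (0.749), Kcnq5 (0.819), Ptn (0.815), Rpl13a (0.886), Rpl5 (0.929) and Slc18a1 (0.716). Replicate 2 lay above the others for Lgals3 (0.738) and below them for Cyp3a2 (0.825), Efna5 (0.844) and Grik5 (0.728). Replicate 3 lay above the others for Bckdhb (0.848), Erbb2 (0.719), Kcnj8 (0.729) and Stbd1 (0.752) and below them for Kcna4 (0.794), Kcnh1 (0.738) and Nkx2-2 (0.724). Replicate 4 lay above the others for Adora2a (0.8285) and Endou (0.887) and below them for Adora2b (0.834), Col1a1 (0.712) and Npy (0.770). Replicate 5 lay above the others for Insr (0.739), Lck (0.867), Myl1 (0.771) and Rab27a (0.772) and below them for Ghrhr (0.761), Kcnt1 (0.812) and Kiss1r (0.734). In Endou the array apart read 8.44 and the other 4 4.99 to 5.37. In Npy, at the bright end, the gap was small in size: 13.38 against 13.42 to 13.43. Nkx2-2 read 12.07 on replicate 3 and 12.21 to 12.26 on the others.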

How the results depend on the processing

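Each alternative was run: quantile normalization, an average over a gene's probe sets, the probe set of highest mean over the whole series, no probe sets marked x_at, the median over arrays, the log2 of the mean linear intensity and leaving out each array. Of the counts of list members in the brightest 25%, taken for 21 lists under each alternative, 4 of 231 moved by over 1.5 times. All 4 were among the 21 counts with the probe set average. They were 3 endothelial genes in place of 0, 7 growth factor, lactogen and nutrient hormone receptors in place of 11, 6 leukocyte genes in place of 3 and 2 potassium channel genes in place of 4. Of the counts in the brightest 5%, 6 of 231 moved, 5 of 21 with the probe set average and 1 of 21 with the median over arrays. Of 462 named genes, 142 had a mean that moved by more than its SD with the probe set average, and 2 (Galr2, 8.65 in place of 10.64, and P2rx2, 5.53 in place of 5.98) without probe sets marked x_at; 0 did so under the other alternatives. Of 16 hormone ranks 9 moved with the probe set average and 1 with the median over arrays (Iapp, 14 in place of 19). The probe set average takes in dimmer probe sets by its construction. Leaving out each array in turn gave a median SD of 0.101 to 0.117, 124 to 143 genes with an SD above 0.5 and 5.18% to 6.18% of genes with 1 array apart. No paired analysis was possible because there is 1 group and the results come from no test. Signal over background was not available as a detection call, so the dimmest genes have a position only.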

Other observations

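Some bright probe sets carry no usable name. Of the 310 brightest 1% of probe sets 85 named no gene or several, and the brightest of these had a mean of 14.64 and stood at position 5 among all probe sets. They are not analysed here.

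The largest SDs of all genes lay at low levels. Endou read 5.09, 4.99, 5.37, 8.44 and 5.19 on replicates 1 to 5, with replicate 4 at 10.9-fold the lowest array. Adam33 read 8.42, 6.09, 6.33, 6.15 and 5.59, with replicate 1 on top. The chemokine Ccl21 had an SD of 0.97 and the acute phase gene Saa3 of 0.96. These genes were named after their values were seen, and what sets their spread was not tested.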
